A study of Mus musculus with 4 samples.

Results

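Heat shock and chaperone genes encode the proteins that fold new polypeptides and refold damaged ones. The 10 genes described here, of 25239 in the count tables, were listed by symbol: the transcription factor gene Hsf1, the cytosolic chaperone genes Hspa1a, Hspa1b, Hspa8, Hsph1, Hsp90aa1, Dnajb1 and Hspb1, the mitochondrial Hspd1 and Hspa5 of the endoplasmic reticulum (ER). All 10 passed the filter on low counts. They were compared in mouse embryonic stem cells (mESC) between an induced Ogt knockout (Ogt iKO) and a control.

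All cells were of the genotype Ogt fl/fl, in which the Ogt gene is flanked by loxP sites. The labels do not describe the line, its recombinase or its reporter. The 2 Ogt iKO libraries came from cells grown for 6 days with 4-OHT (4-hydroxytamoxifen, a ligand that switches on tamoxifen-dependent recombinases), and the 2 control libraries from cells grown without it. Both grew with LIF on feeder fibroblasts that had been stopped from dividing with mitomycin C, and viable cells were sorted before polyadenylated RNA was sequenced. Sorting on yellow fluorescent protein (YFP+) was applied to the treated group alone, and a group given the ligand while keeping Ogt is not described. The ligand, the extra selection and the loss of Ogt therefore cannot be told apart. The labels do not say whether replicates were separate cultures, so p-values measure the spread between these libraries, which may be technical.

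Under protein-damaging stress, HSF1 forms trimers, enters an active state and binds heat shock elements, which are repeats of the letters GAA in alternating orientation, in the promoters of chaperone genes. HSP70 proteins hold unfolded segments with the help of J-domain partners, HSP110 proteins reset them by exchanging nucleotide, and HSP90 finishes the folding of kinases and steroid receptors. The ER and the mitochondria have chaperones of their own, which respond to unfolded protein responses of those compartments. OGT places N-acetylglucosamine on many cytosolic and nuclear proteins, and the level of this modification is known to rise under several kinds of cell stress.

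The libraries held 14668489 to 16504204 counts. The deleted gene, Ogt, was at 25.5 and 25.1 CPM (counts per 1000000 counts, scaled by the trimmed mean of M-values, TMM) in the Ogt iKO libraries and at 191 and 202 CPM in the controls, which fits their labels. All 8 stem cell markers were detected. Their summed level was 1848 and 2068 CPM in Ogt iKO and 3106 and 3076 CPM in control, and 7 of them were lower, where 32% of all genes tested were lower (edgeR adjusted p under 0.05). The 14 fibroblast markers summed to 2871 and 758 CPM in Ogt iKO replicates 1 and 2, against 1432 and 1507 CPM in control, with none at 0. Of these 14, 1 was higher and 1 lower over all libraries (33.2% and 32% of all genes), 12 were lower without Ogt iKO replicate 1 and 12 were higher without Ogt iKO replicate 2. The protocol names the surface protein CD90.2 for choosing stem cells and CD326 for excluding fibroblasts. This is the reverse of the usual use of these markers, and in the lists here Thy1 (CD90) stands among the fibroblast markers and Epcam (CD326) among the stem cell markers. Thy1 had 138 to 437 counts and Epcam 4452 to 5376 counts.

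The 10 genes did not move as a block. Hspa1a, Hspb1, Hspa5 and Dnajb1 were higher in Ogt iKO, Hsph1, Hspd1, Hsp90aa1 and Hspa8 were lower, and Hsf1 and Hspa1b did not pass the threshold of an adjusted p under 0.05 (edgeR's quasi-likelihood test, Benjamini-Hochberg adjustment over the 14525 genes tested). So 8 of 10 were called, where 65.3% of all genes tested were called, 33.2% as higher and 32% as lower. For 9 of the 10 the 2 groups did not overlap, where 83.2% of all genes did not overlap. Their median log2 fold change was -0.10, against 0.02 for all genes tested. Without TMM, on library totals, the median over all genes was 0.19, and the calls among the 10 were 5 higher and 3 lower. Each fold given here is thus set against the other genes of the same library.

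**Figure D1:**
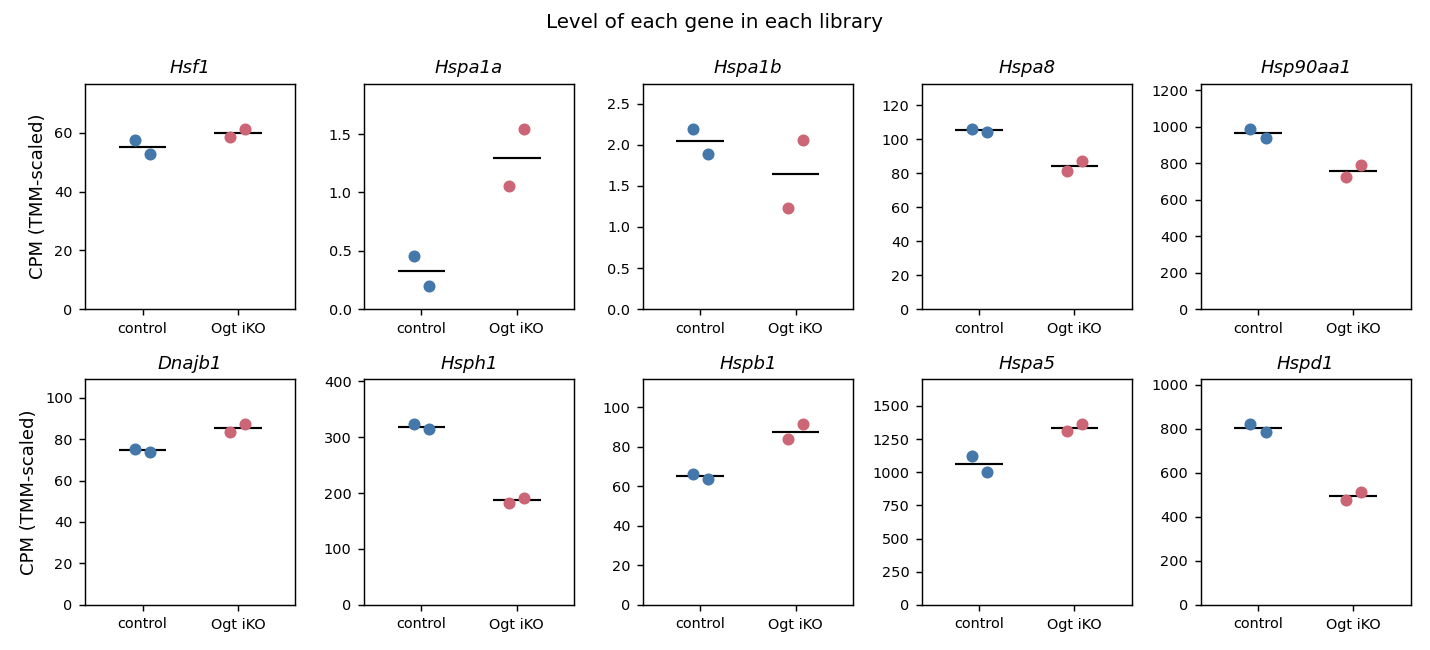
Level of each of the 10 genes in each library, in TMM-scaled CPM on linear axes that start at 0. Points are libraries (2 per group) and lines are group means. The control mean of Hsph1 is 319 CPM against 187 CPM in Ogt iKO, and that of Hspd1 is 803 against 496 CPM, while Hspa1b is the gene whose groups overlap.

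**Figure D2:**
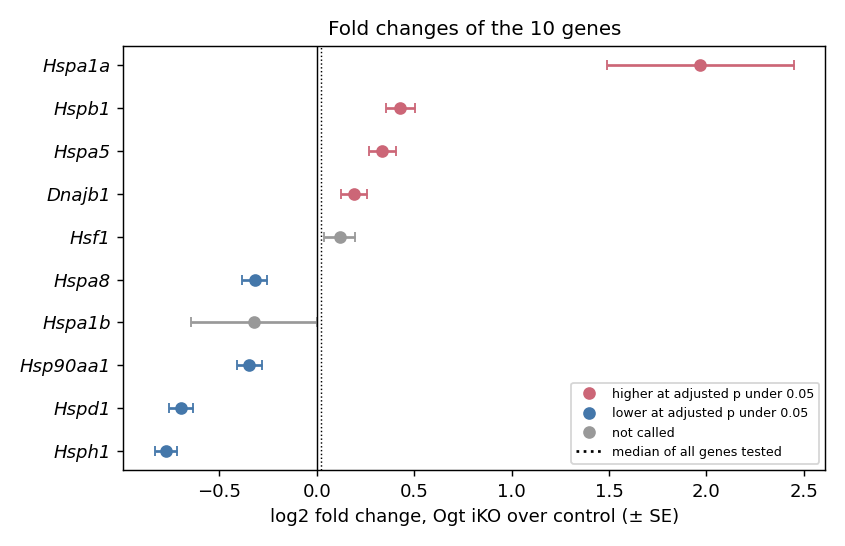
Log2 fold change of each gene, Ogt iKO over control, with its standard error. Colours give the call in edgeR, and the dotted line marks the median of all genes tested (0.02). Values run from -0.77 for Hsph1 to 1.97 for Hspa1a, whose error is the widest.

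Hsf1, the main transcription factor of the heat shock response, lies on chromosome 15 from 76477422 to 76501913 (GRCm38). It had 58.4 and 61.4 CPM in the Ogt iKO libraries and 57.5 and 52.8 CPM in control. The libraries of the 2 groups did not overlap, but the gap was small beside their spread. The difference on the log2 scale was 0.12 ± 0.0794 (SE; edgeR adjusted p 0.218). On library totals it was 0.29 and passed the threshold (edgeR adjusted p 0.0111). Activity of HSF1 is set mostly on the protein, which mRNA counts do not measure.

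The other heat shock factor genes were less abundant or moved differently. Hsf2, which encodes a factor that can pair with HSF1, had 68.0 and 73.6 CPM in Ogt iKO against 88.8 and 86.3 CPM in control, a log2 difference of -0.31 ± 0.071 (SE; edgeR adjusted p 0.00493). On library totals that call was lost (-0.14). Hsf5, a factor gene best known from the testis, rose from 19 and 24 counts in control to 63 and 49 counts in Ogt iKO (1.29 in log2; edgeR adjusted p 0.00279). Hsf2bp, whose product binds HSF2 and serves in meiotic recombination, fell by 0.62 on the log2 scale. Hsbp1, which encodes a small protein that binds HSF1 trimers, differed by 0.14 in log2, short of the threshold (edgeR adjusted p 0.111). For Hsf4 the counts were 15 and 16 (Ogt iKO) and 4 and 16 (control), with no call. For Hsf3 they were 13 and 7 against 0 and 1, too few to be tested. Of the 6 tested genes of these factors and their binding proteins, 1 was higher and 2 lower, which is 50% called where 65.3% of all genes were. On library totals 3 were higher and 1 lower. Without control replicate 1, or without control replicate 2, 2 were higher.

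Hspa1a and Hspa1b encode the stress-inducible HSP70 and sit side by side on chromosome 17, from 34969190 to 34972156 and from 34956436 to 34959238 (GRCm38), both on the minus strand. The 250 bases before their starts, from RefSeq (GRCm38.p6), are shown because the copies are close to identical there too, differing at 3 positions. Capitals mark the pair of inverted GAA units, GAANNTTC, which lies 104 bases before the start in both. The stretches are chr17:34972157-34972406 and chr17:34959239-34959488, read 5′ to 3′ on the minus strand.
Hspa1a: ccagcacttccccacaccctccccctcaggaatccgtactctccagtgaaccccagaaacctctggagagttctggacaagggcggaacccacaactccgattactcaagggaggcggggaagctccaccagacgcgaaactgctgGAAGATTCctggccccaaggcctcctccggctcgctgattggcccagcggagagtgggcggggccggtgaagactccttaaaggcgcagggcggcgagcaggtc
Hspa1b: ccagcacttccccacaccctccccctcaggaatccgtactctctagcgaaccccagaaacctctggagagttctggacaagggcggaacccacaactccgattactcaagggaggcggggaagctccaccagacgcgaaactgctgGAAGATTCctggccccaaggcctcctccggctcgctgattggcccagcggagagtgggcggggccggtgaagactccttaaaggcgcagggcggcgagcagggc

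Both genes had few counts. For Hspa1a the counts were 18 and 24 in Ogt iKO and 7 and 3 in the controls. For Hspa1b they were 21 and 32 against 34 and 29. Hspa1a was thus higher in both knockout libraries, and Hspa1b overlapped between groups. Hspa1a differed by 1.97 ± 0.479 in log2 (SE; edgeR adjusted p 0.00645). The value ran from 1.49 to 2.67 with 1 library left out. The call was lost without control replicate 2 (adjusted p 0.063, edgeR) and with DESeq2 (adjusted p 0.0743). Hspa1b differed by -0.32 ± 0.322 (SE; edgeR adjusted p 0.402), which turned to 0.02 without Ogt iKO replicate 1.

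The call on Hspa1a does not carry over to the pair. Of the 50-base stretches of the Hspa1a transcript, 58.8% occur in Hspa1b, and 62.3% of those of Hspa1b occur in Hspa1a, so reads cannot be safely assigned to either. Summed, the pair reached 39 and 56 counts in Ogt iKO and 41 and 32 in the controls, which is 2.94 CPM ± 0.939 (SD, n = 2) against 2.37 CPM ± 0.398 (SD, n = 2). These groups overlapped, and the sum differed by 0.31 ± 0.297 in log2 (SE; edgeR adjusted p 0.387). Hspa1a held 46.2% (95% Wilson interval 31.6 to 61.4%) and 42.9% (30.8 to 55.9%) of the pair's counts in the Ogt iKO libraries. In control it held 17.1% (8.53 to 31.3%) and 9.38% (3.24 to 24.2%). These intervals cover counting error only. In addition, Gm20481, annotated as protein-coding on the other strand, covers 19% of the exon length of Hspa1a and shares 10.8% of the 50-base stretches of Hspa1b. Gm20481 had no row in the count tables, and the strand that was counted is not given in the sources used here. The related Hspa1l had 19 and 19 counts against 16 and 20.

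**Figure D3:**
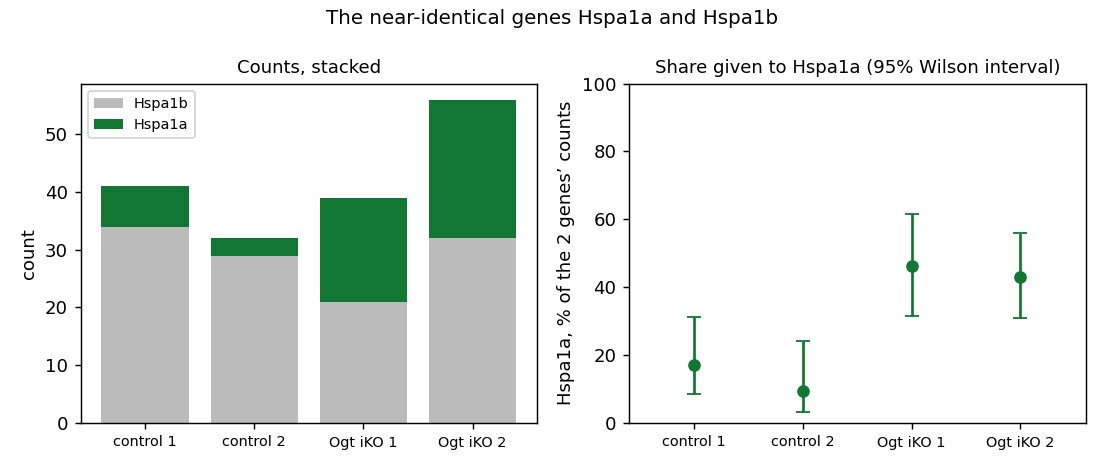
Left, counts of Hspa1b and Hspa1a stacked for each library. Right, the share of the pair's counts given to Hspa1a, in percent, with 95% Wilson intervals. The stacked totals overlap between groups (39 and 56 against 41 and 32), while the share is higher in both Ogt iKO libraries.

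Hspa8, the constitutive HSP70 of the cytosol (HSC70), lies on chromosome 9 from 40800984 to 40810087. It had 81.4 and 87.4 CPM in Ogt iKO and 106 and 104 CPM in control, so both knockout libraries lay below both controls. Its log2 difference was -0.32 ± 0.065 (SE; edgeR adjusted p 0.00257), which leaves 80.2% of the control level. On library totals it was -0.15 and missed the threshold (edgeR adjusted p 0.0651).

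Hsph1 encodes HSP110 (HSP105), which resets HSP70 by nucleotide exchange and lies on chromosome 5 from 149614287 to 149636376. Among the 10 genes its fall was the largest. Its level was 183 and 191 CPM in Ogt iKO against 323 and 315 CPM in control. Each knockout library was far below each control, and the mean fell from 319 CPM ± 5.27 to 187 CPM ± 5.35 (SD, n = 2 each), or 58.6% of control. In log2 this was -0.77 ± 0.056 (SE; edgeR adjusted p 1.061e-05). None of its transcript's 50-base stretches occurred in annotated transcripts of other loci.

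Of the 15 tested genes of the HSP70 and HSP110 families, 4 were higher, 6 lower and 5 not called, with a median log2 fold change of -0.32. The 66.7% called is close to the 65.3% of all genes. Without control replicate 2, 2 were higher, and on library totals 5 were higher and 4 lower. Log2 fold changes were -0.63 for Hspa4, another HSP110-type exchange factor, -0.71 for Hspa9, the mitochondrial HSP70, and -0.94 for Hspa14, a ribosome-associated HSP70. Hspa4l, close in sequence to Hspa4 and abundant in testis, rose by 1.48, from 166 and 153 counts in control to 513 and 431 in the knockout (edgeR adjusted p 1.308e-05).

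Hsp90aa1 encodes the inducible cytosolic HSP90 alpha and lies on chromosome 12 from 110690605 to 110702728. It had 725 and 793 CPM in Ogt iKO and 990 and 938 CPM in control. The groups were apart, with a mean of 759 CPM ± 47.5 against 964 CPM ± 36.7 (SD, n = 2 each). The log2 difference was -0.35 ± 0.0652 (SE; edgeR adjusted p 0.0017). Its constitutive partner Hsp90ab1 was 57.8% of control, at 5025 and 5175 CPM against 8900 and 8757 CPM (-0.79 in log2; edgeR adjusted p 1.182e-05). Of the 4 HSP90 genes, 3 were lower with edgeR and with DESeq2, where 32% of all genes were lower in edgeR. The third was the mitochondrial Trap1, at -0.26, which lost its call on library totals and without control replicate 2. The remaining gene, Hsp90b1 of the ER, differed by 0.01 ± 0.0586 (SE; edgeR adjusted p 0.888), and by 0.179 on library totals, where it was called higher.

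Dnajb1 encodes the J-domain protein (HSP40) that works with inducible HSP70 (chromosome 8, 83608193 to 83612653). The knockout libraries held 83.3 and 87.0 CPM and the controls 75.3 and 73.6 CPM. The groups did not overlap, but the gap was 1.14-fold, or 0.19 ± 0.0667 in log2 (SE; edgeR adjusted p 0.0307). The call was the least stable of the 8, being lost in 7 of 14 alternatives, among them DESeq2 (adjusted p 0.1745) and the fits without Ogt iKO replicate 2 or without either control. Of the 41 tested J-domain genes, 13 were higher, 12 lower and 16 not called, with a median of -0.02, and the 61% called is under the 65.3% of all genes. The lower ones numbered 6 without Ogt iKO replicate 1, without control replicate 1 or without control replicate 2. On library totals 19 were higher and 4 lower. Dnaja4 rose by 1.65 and Dnajb4, a close relative of Dnajb1, by 1.38 (145 and 162 counts in control, 471 and 375 in Ogt iKO). The value of Dnaja4 is uncertain, because Wdr61, on the other strand, covers 44.1% of its exon length. Dnajc4 and Dnajc27 fell by 1.07 and 0.97.

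Hspb1 encodes the small heat shock protein HSP25, which binds unfolding proteins without ATP, and lies on chromosome 5 (135887919 to 135889563). Its 250 bases before the start (RefSeq, GRCm38.p6, chr5:135887669-135887918, plus strand) are shown because they hold 2 GAANNTTC pairs, in capitals, 117 and 97 bases before the start.
Hspb1: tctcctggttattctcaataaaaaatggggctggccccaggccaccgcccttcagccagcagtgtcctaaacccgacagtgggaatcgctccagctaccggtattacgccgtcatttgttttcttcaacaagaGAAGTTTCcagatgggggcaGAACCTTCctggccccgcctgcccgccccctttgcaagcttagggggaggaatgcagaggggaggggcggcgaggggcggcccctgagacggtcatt

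The level of Hspb1 was 84.0 and 91.4 CPM in Ogt iKO and 66.3 and 63.8 CPM in control. Both knockout libraries were above both controls, by 0.43 ± 0.0732 in log2 (SE; edgeR adjusted p 0.000969). Among the 5 tested small heat shock genes 2 were higher and 1 lower, so 60% were called, near the 65.3% of all genes. Cryab, which encodes alpha B-crystallin, rose by 1.69, from 28 and 32 counts in control to 116 and 90 in Ogt iKO, and Hspb8 fell to 46.3% of control. Part of the exon length of Cryab (17%) lies under Hspb2 on the opposite strand, though Hspb2 itself had 1 to 4 counts. Fibroblasts are known to express Hspb1 and Cryab, and the fibroblast markers were highest in Ogt iKO replicate 1. Without that library the log2 fold changes were 0.50 for Hspb1 and 1.58 for Cryab, both past the threshold, and the part of fibroblast RNA in these values was not tested.

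Immediate-early genes that respond to cell dissociation were listed as well. Of the 12, 9 were higher and 2 lower (Ier2 at -0.45 and Ier3 at -1.04 in log2), where 33.2% and 32% of all genes were. The list's median log2 fold change was 0.77, and its summed level was 575 and 560 CPM in Ogt iKO against 418 and 383 CPM in control, with none at 0. Btg2 alone made up 156 and 167 CPM of these sums in Ogt iKO and 48.7 and 47.2 CPM in control. For Fos the counts were 202 and 136 against 27 and 20. Their part in the values of Hspa1a, Dnajb1 and Hspb1 was not tested.

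Hspd1 encodes HSP60, the barrel-shaped chaperonin of the mitochondrial matrix, and lies on chromosome 1 from 55077835 to 55088243, head to head with Hspe1, the gene of its lid HSP10. It had 477 and 514 CPM in Ogt iKO and 819 and 786 CPM in control. The gap was many times the spread within groups, and the mean fell from 803 CPM ± 23.7 to 496 CPM ± 26.3 (SD, n = 2 each), or 61.7% of control. In log2 this was -0.70 ± 0.062 (SE; edgeR adjusted p 2.848e-05). Hspe1 had 82.8 and 90.6 CPM against 110 and 107 CPM (-0.33 in log2; edgeR adjusted p 0.00273). On library totals Hspe1 was at -0.16 and missed the threshold (edgeR adjusted p 0.062). Of its 50-base stretches, 36.1% also occur in annotated transcripts of other loci. Of 13 mitochondrial chaperones and proteases, 1 was higher, 9 lower and 3 not called, with a median of -0.33, where 32% of all genes were lower. On library totals 6 were lower. Grpel1, the exchange factor of mitochondrial HSP70, fell by 0.68, and Clpx, the unfoldase of a matrix protease, rose by 0.31. Part of the exon length of Grpel1 (11.6%) lies under Tada2b on the opposite strand. The call on Clpx was lost without control replicate 2.

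Hspa5 encodes BiP (GRP78), the HSP70 of the ER, and lies on chromosome 2 from 34771970 to 34777547. It had 1313 and 1360 CPM in Ogt iKO and 1118 and 998 CPM in control. Both knockout libraries were above both controls, although the controls differed by more than the knockouts did. The rise was 1.26-fold, or 0.34 ± 0.0687 in log2 (SE; edgeR adjusted p 0.00258), and ran from 0.25 to 0.41 with 1 library left out. Among the 21 ER chaperones and folding enzymes, 10 were higher, 3 lower and 8 not called, with a median of 0.10. The 61.9% called is under the 65.3% of all genes, and 33.2% of all genes were higher. Pdia3, a disulfide isomerase that folds glycoproteins, rose by 0.48. Dnajb9, a J-domain partner of BiP, rose by 0.55.

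Hsp90b1, Hyou1 and Sdf2l1, which also encode ER chaperones or their partners, were not called. Log2 fold changes were 0.01 for Hsp90b1, -0.11 for Hyou1, which encodes the HSP110 of the ER, and -0.04 for Sdf2l1, none past the threshold (edgeR adjusted p 0.105 to 0.888). On library totals Hsp90b1 was called higher, and the values of Hyou1 and Sdf2l1 turned positive without passing. Txndc5, a disulfide isomerase, and Canx, the lectin chaperone calnexin, fell by 0.44 and 0.37. Bmp6 and Gm31834 overlap 11.9% of the exon length of Txndc5 on the other strand. The largest rise on the ER list was that of Serpinh1 (HSP47), which folds collagen, at 508 and 412 CPM against 253 and 242 CPM. Its log2 fold change was 0.89, and 0.74 without Ogt iKO replicate 1, the library in which fibroblast markers were highest. The part of fibroblast RNA in this value was not tested. Of the 8 sensors and factors of the unfolded protein response, 2 were higher and 2 lower, or 50% called against 65.3% of all genes, and 4 were lower without Ogt iKO replicate 2. Atf6, whose product activates Hspa5, rose from 67.9 and 69.5 CPM to 131 and 135 CPM (0.95 in log2; edgeR adjusted p 5.878e-06), and Ddit3 (CHOP) rose by 1.30. Atf4 fell to 53.3% and Xbp1 to 73.4% of control.

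Short promoter stretches of Hsph1, Hspd1 and Hspa5 are shown because they hold longer or different elements than those above. They lie under annotated exons of some transcripts, so the match is printed in capitals with 5 bases on each side. Hsph1 has the pair TTCNNGAA before a RefSeq start (chr5:149636357-149636374, minus strand) and 3 alternating units after it (chr5:149636283-149636305). Hspd1 has overlapping sets of 3 units, each GAANNTTC with a further GAA 2 bases on, read on either strand (chr1:55088054-55088081, minus strand). Hspa5 has an ER stress element, CCAAT and CCACG with 9 bases between, 65 bases before its start (chr2:34772020-34772048, plus strand).
Hsph1, before the start: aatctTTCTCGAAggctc
Hsph1, after the start: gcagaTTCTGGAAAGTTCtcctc
Hspd1: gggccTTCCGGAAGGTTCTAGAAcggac
Hspa5: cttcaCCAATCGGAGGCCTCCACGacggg

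RefSeq windows of 300 bases (250 before and 50 after a start) were at hand for 7 of the 10 genes, which leaves out Hsf1, Hspa8 and Hsp90aa1. GAANNTTC, which reads the same on both strands, occurred in the windows of 5 of these 7 genes (Hspa1a, Hspa1b, Hspb1, Hspd1 and Hsph1), where 9.04% of 27025 genes had it. The windows of Hspa1a and Hspa1b are near copies that differ at 4 positions, so their matches are not separate cases. The set of 3 units, searched on both strands and containing GAANNTTC, occurred for Hspd1 and Hsph1, where 0.662% of genes had it. That set also contains TTCNNGAA, which reads the same on both strands too. The match of TTCNNGAA for Hspd1 and Hsph1, where 9.6% of genes had it, thus follows from the set and adds nothing to it. The ER stress element occurred for Hspa5, where 0.137% of genes had it. These are matches of letters. Genes with them were both higher (Hspb1, Hspa5) and lower (Hspd1, Hsph1) in Ogt iKO, and the windows of Dnajb1 held none of these motifs.

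Several of the 10 genes have near copies elsewhere in the genome, which limits their counts. The share of 50-base stretches that also occur in annotated transcripts of other loci was 68.8% for Hspa8, 50.1% for Hsp90aa1, 50.1% for Hspb1 and 39.7% for Hspd1. It was 0.4% for Dnajb1 and 0 for Hsf1, Hsph1 and Hspa5. The copies of Hspa8, Hsp90aa1, Hspb1 and Hspd1 that shared most were the pseudogenes Gm15459, Gm12346, Hsp25-ps1 and Hspd1-ps3, none of which had a row in the count tables. How reads mapped to several loci were treated is not given in the sources used here. Levels of these 4 genes and of the Hspa1 pair are therefore uncertain, while Hsf1, Hsph1 and Hspa5 shared no such stretch.

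**Figure D4:**
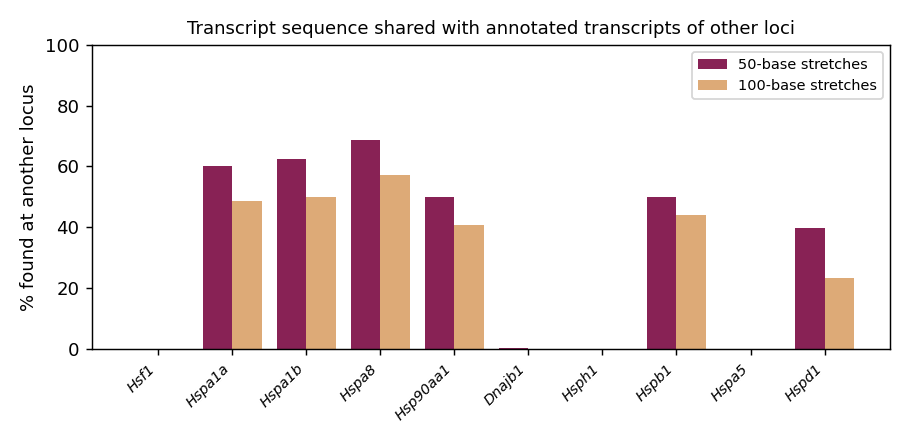
Share of the 50-base and 100-base stretches of each gene's protein-coding transcripts that also occur, on either strand, in an annotated transcript of another locus, in percent. Hspa8 stands highest at 68.8% for 50 bases, and Hsf1, Hsph1 and Hspa5 are at 0.

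Levels were compared between genes only per kilobase of exon, with the exons of all annotated transcripts of a gene merged. This length was 7266 bases for Hsph1, 7099 for Hsf1, 4301 for Hspa8 and 1031 for Hspb1. Their protein-coding transcripts held 4402, 2444, 2550 and 1030 distinct 50-base stretches. The order and the overlaps below may thus depend on the length used, and other lengths were not tested. In control the order was Hspd1 (304 CPM per kb ± 8.99), Hspa5 (250 ± 20.1), Hsp90aa1 (245 ± 9.33), Hspb1 (63.1 ± 1.69), Hsph1 (43.9 ± 0.725), Hspa8 (24.5 ± 0.293), Dnajb1 (23.2 ± 0.382), Hsf1 (7.77 ± 0.467), Hspa1b (0.729 ± 0.0772) and Hspa1a (0.109 ± 0.0611; SD, n = 2 for each). Hspa5 and Hsp90aa1 overlapped there. In Ogt iKO Hspa5 came first, at 316 CPM per kb ± 7.85, followed by Hsp90aa1 (193 ± 12.1) and Hspd1 (188 ± 9.96), which overlapped each other. Dnajb1 (26.6 ± 0.813) and Hsph1 (25.7 ± 0.736) overlapped as well (SD, n = 2 for each). The low place of Hspa8 rests on a gene with 68.8% shared sequence.

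Of the 15 genes of the chaperonin TRiC, which folds actin and tubulin, and of prefoldin, its delivery complex, 11 were lower, 1 higher and 3 not called, with a median log2 fold change of -0.62, where 32% of all genes were lower. Their summed level was 6126 and 6524 CPM in Ogt iKO against 10336 and 9726 CPM in control. The prefoldin gene Pfdn6 fell by 0.86, from 114 and 102 CPM to 53.7 and 65.3 CPM, and the TRiC gene Cct5 by 0.84, from 1319 and 1223 CPM to 686 and 733 CPM. The gene that rose was Cct6b, a subunit best known from testis, from 34 and 17 counts to 137 and 153 counts. In bulk RNA, fewer cells of a type and less RNA per cell cannot be told apart.

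Cytosolic co-chaperones showed the same direction more often than not. Of 22 tested, 16 were lower, 3 higher and 3 not called, with a median of -0.47, where 32% of all genes were lower and 33.2% higher. On library totals 13 were lower and 5 higher. Stip1 (HOP), which hands clients from HSP70 to HSP90, was 43.2% of control, at 313 and 353 CPM against 765 and 774 CPM (-1.21 in log2; edgeR adjusted p 3.723e-06). The immunophilins Fkbp5 and Fkbp4, partners of HSP90 on steroid receptors, fell by 1.45 and 0.92. The 3 called higher with TMM changed little: Bag2 by 0.33, Unc45a by 0.25 and Cdc37, which brings kinases to HSP90, by 0.21. All 3 lost their call without control replicate 2, and 2 of them did without Ogt iKO replicate 2.

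Over the 23 genes widely known as HSF1 targets, which include 8 of the 10 members, 8 were higher, 11 lower and 4 not called, with a median of -0.32. That is 82.6% called, against 65.3% of all genes (33.2% higher and 32% lower), and on library totals 10 were higher and 8 lower. Bag3, a co-chaperone gene strongly induced by heat, fell by 0.46 on the log2 scale, to 510 and 366 counts from 611 and 527 (edgeR adjusted p 0.0097), a call lost without control replicate 1 and on library totals. Over 9 lists together (heat shock factors and all chaperone lists above except the unfolded protein response), 131 of 139 genes were tested, and 32 were higher and 59 lower, which is 69.5% called against 65.3% of all genes. Their median was -0.18 against 0.02. With library totals alone the split was 46 higher and 42 lower, so the balance of directions depends on the scaling. The count of lower TRiC and prefoldin genes was 11 under both scalings, and that of higher ones was 1 with TMM and 2 on library totals.

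**Figure D5:**
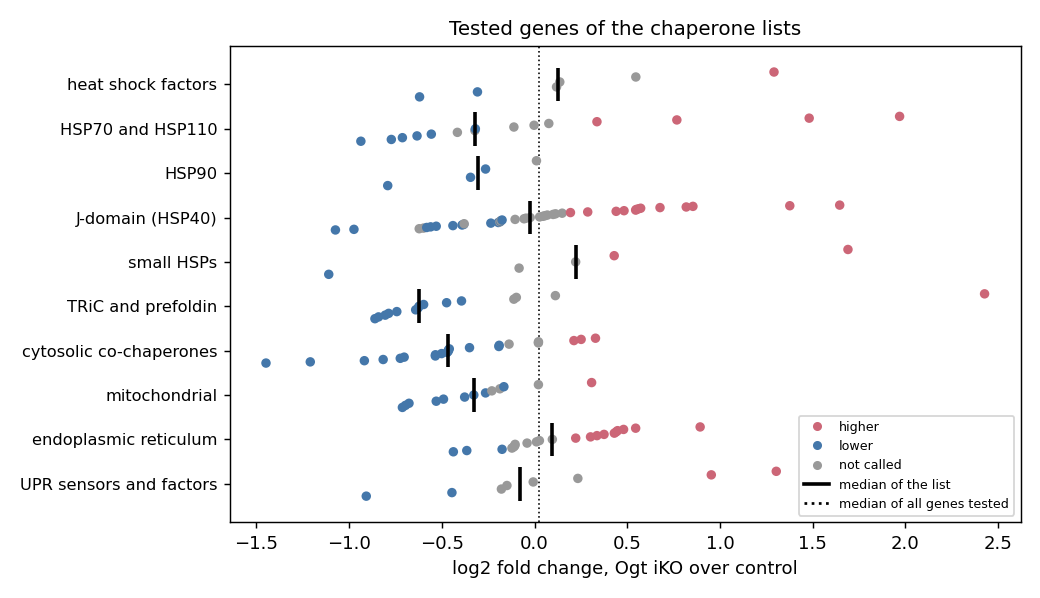
Log2 fold changes, Ogt iKO over control, of the tested genes of 10 lists, with 1 point per gene coloured by its call in edgeR. Black bars are list medians, from -0.62 for TRiC and prefoldin to 0.22 for small heat shock proteins, and the dotted line is the median of all genes tested (0.02).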

How the data were processed

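Per the labels, RNA was sequenced from 2 Ogt iKO and 2 control samples with a stranded mRNA kit. The authors deposited raw counts per gene symbol, 1 table per library. Per the submitters' processing notes STAR, Picard and mm10 were used. Versions, annotation and counted strand are not given in the sources used here. The tables held 0 rows without a gene name.

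The test was the quasi-likelihood F-test of edgeR 4.0.16 under R 4.3.3 (TMM scaling, filterByExpr, no covariate, all 4 libraries in 1 fit). Benjamini-Hochberg adjustment was over all 14525 genes tested. The procedure was also run on simulated data in which few genes changed, evenly up and down, with the same spread for all. In the real data 65.3% of genes were called, so that run cannot judge the scaling used here. The common biological coefficient of variation was 7.82%. With 2 against 2, an exact test of a single value cannot go below a p of 0.333. Standard errors come from the fold change and its F statistic. CPM used TMM-scaled totals. A count of 0 allows up to 3 counts, or 0.175 to 0.195 CPM. Replicates differed beyond sampling noise (chi-square per degree of freedom 7.04 in Ogt iKO and 4.25 in control).

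Exon lengths, overlaps and transcripts came from GENCODE M21 (GRCm38), and promoters from RefSeq (GRCm38.p6). The motif TTCNNGAA was added after the sequences were seen. The 10 genes and the lists were chosen with earlier results of these data known. Besides all 10 genes and the heat shock factors, the text draws its named genes from up to 3 in each direction per list, though not all of these are printed, taking the largest changes among those called, provided that the average log2 CPM reached 2 and no library of 1 group fell within the other. Hspe1, Hsp90b1, Hyou1, Sdf2l1, Hspa1l, Hspb2, Bag3, Fos, Btg2, Ier2, Ier3, Thy1 and Epcam are named beyond that rule, after their values were seen. Alternatives were DESeq2 1.42.0, other scalings, filters and thresholds, a robust fit, a replicate block, and leaving out each library.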

Additional observations from a re-analysis of the deposited data

How the results depend on the processing

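Of the 10 genes, 9 kept their sign under all 14 alternatives, and 3 of the 8 calls (Hsph1, Hspd1 and Hspb1) held under each. Hspa1b was 0.019 without Ogt iKO replicate 1 and -0.755 when replicate 2 of that group was left out, and Hsf4 ran from -0.14 without control replicate 1 to 1.84 without control replicate 2. Uncalled genes near 0 changed sign too. Hyou1 turned to 0.0572 and Sdf2l1 to 0.128 on library totals, and Sdf2l1 to 0.00137 with upper-quartile scaling. Hsp90b1 was -0.0149 with DESeq2 and -0.0062 with no filter, and -0.0427 to 0.0471 with 1 library left out. Hspa1l was 0.165 on library totals, 0.0388 with upper quartiles, 0.00674 with the CPM filter, 0.00335 with the replicate block, and -0.167 to 0.163 with 1 library left out. Thy1 was -0.805 without Ogt iKO replicate 1 and 0.687 when replicate 2 of that group was left out. Among the 10 genes, 2 instead of 4 were higher with DESeq2, with glmTreat against a fold of 1.2, and without control replicate 2, and 2 instead of 4 were lower with glmTreat, which also called 21 rather than 32 genes of all 9 lists as higher. The log2 fold change of the summed Hspa1 pair was -0.078 at the lowest (without Ogt iKO replicate 2) and 0.613 at the highest (replicate 1 of that group left out), and fitted as separate rows the genes had 1.97 (Hspa1a) and -0.32 (Hspa1b). DESeq2 called 2 rather than 4 HSP70 genes and 1 rather than 3 co-chaperones as higher, and 7 rather than 12 J-domain genes as lower. With glmTreat 6 rather than 11 HSF1 targets and 1 rather than 3 HSP90 genes were lower. In the 250 bases before the start alone, 1 gene rather than 2 held the set of 3 alternating GAA units. Scaling by totals alone made 65% of all called genes higher, against 50.9%. The replicate numbers do not pair the libraries by the labels (correlation of same-numbered deviations 0.0859). With the replicate block 4922 genes were higher and 4719 lower over the whole table, 4 and 4 among the 10 genes, 32 and 59 over the lists, and the summed Hspa1 pair had a log2 fold change of 0.292. The scalings and the block for the pair were chosen after seeing the data. The causes of these changes were not tested. Depth limits Hspa1a, Hspa1b and Hsf4, which had few counts.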
